A study of Sus scrofa domesticus with 150 samples.

Results

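A set of 10 genes of the WNT pathway were followed through the healing of porcine skin wounds, namely the ligands WNT2, WNT5A, WNT10A and WNT10B, the pathway targets LEF1 and AXIN2, and the antagonists DKK2, DKK3, SFRP2 and SFRP4. Members were taken by gene symbol, and all 10 were found, with 1 row each, among the 30461 gene rows of the count table. AXIN2 had no entry in the gene name column and was matched through its protein description. All 10 passed the filter on low counts on every day and in the fit of all samples.

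WNT proteins are secreted lipid-modified ligands that bind Frizzled receptors. With the co-receptors LRP5 and LRP6 this stabilises beta-catenin, which enters the nucleus and acts with TCF and LEF factors, and AXIN2 is a feedback inhibitor switched on by that signal in many tissues. Secreted frizzled-related proteins (SFRP) bind WNT ligands, and Dickkopf proteins (DKK) act at the LRP co-receptors, although DKK3 is a divergent member of that family. In skin the pathway is known for its part in hair follicle formation and cycling and in the epidermis, while WNT5A is known mainly for signalling that does not need beta-catenin.

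The files place each gene on a contig of a pig assembly whose name was not given in the sources used here, and their coordinates span the whole gene, exons and introns together. The ligands were WNT2 (ENSSSCG00025066880, contig LUXX01102040.1, 2537418 to 2584961, plus strand), WNT5A (ENSSSCG00025068000, LUXX01094139.1, 289668 to 312237, minus strand), WNT10A (ENSSSCG00025018631, LUXX01031818.1, 2018042 to 2031923, minus strand) and WNT10B (ENSSSCG00025018862, LUXX01038740.1, 1564682 to 1581183, plus strand). The targets were LEF1 (ENSSSCG00025039972, LUXX01048137.1, 851062 to 970046, plus strand) and AXIN2 (ENSSSCG00025059755, LUXX01047513.1, 4781736 to 4813591, plus strand). The antagonists were DKK2 (ENSSSCG00025043481, LUXX01048137.1, 1885821 to 1997980, plus strand), DKK3 (ENSSSCG00025030760, LUXX01024205.1, 2512242 to 2572216, minus strand), SFRP2 (ENSSSCG00025046870, LUXX01085807.1, 135611 to 144404, minus strand) and SFRP4 (ENSSSCG00025071739, LUXX01058986.1, 1713170 to 1723570, minus strand).

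The samples were 150 RNA-seq libraries from 6 female domestic pigs of a Yorkshire-mix breed, numbered 1 to 6 here, whose age was not given in the sources used here. The 6 libraries of day 0 came from the skin excised when the wounds were made, 1 per animal. The other 144 came from small biopsies of the edge and of the center of 72 full-thickness wounds, which all had the same dressings, had no other treatment before sampling, and were each sampled once. Each of the 14 days after wounding has 3 animals, with 2 wounds per animal up to day 13 (6 edge and 6 center samples) and 1 wound per animal on days 15, 16, 19 and 21 (3 and 3). Animals 1 to 3 were sampled on days 1, 3, 5, 7, 11, 15 and 21, and animals 4 to 6 on days 2, 4, 6, 9, 13, 16 and 19, so neighbouring days mostly come from different pigs. Paired wounds of an animal share that animal, and p-values over wounds do not remove this.

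Gene counts summed to between 13133379 and 24895572 per library (medians of 17455384 at the edge and 17883095 in the center), so 3 counts, the limit that a count of 0 allows, correspond to 0.121 to 0.228 on the CPM scale (counts scaled to a common library total). A biopsy is a mixture of cells, and a lower value for a gene in bulk tissue cannot be told apart between fewer cells of a type and less RNA per cell. Averaged over days, all 12 of 12 keratinocyte markers and 5 of 9 tested hair follicle markers were higher at the edge, none of either list was higher in the center, and 8 of 8 T cell and 8 of 8 endothelial markers were higher in the center, where 32.5% of all genes were called at the edge and 33.8% in the center. Of the fibroblast markers 8 of 10 were higher in the center and 2 at the edge, of the neutrophil and macrophage markers 7 of 9 in the center and 2 at the edge, and of the adipocyte and skeletal muscle markers 3 of 8 and 4 of 9 in the center and none at the edge. The keratinocyte markers summed to a median of 28241 CPM in day 0 skin, 23391 CPM at the edge and 263 CPM in the center.

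Per gene length, in fragments scaled by gene length and library total (FPKM), the antagonists SFRP2, SFRP4 and DKK3 had the highest medians of the members at the edge and in the center, while the fourth antagonist, DKK2, had 2.35 and 2.76 FPKM. SFRP2 had a median of 258 FPKM in the center, 121 FPKM at the edge and 7.00 FPKM in day 0 skin. SFRP4 had medians of 55.9, 47.5 and 8.06 FPKM, and DKK3 of 31.1, 13.97 and 17.1 FPKM, in the same order. WNT5A was the most abundant ligand of the 4 in the wound, at a median of 24.7 FPKM in the center, 7.71 FPKM at the edge and 3.55 FPKM in day 0 skin. WNT10B had the lowest median at the edge (0.331 FPKM), and its highest value among all 150 samples was 1.47 FPKM.

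**Figure D1:**
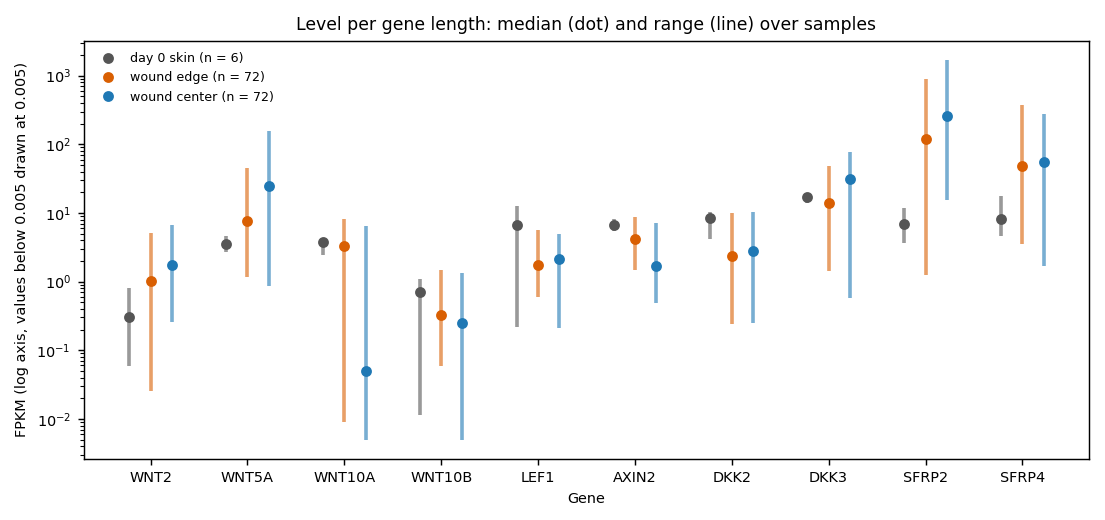
Level per gene length of the 10 genes in day 0 skin (n = 6), wound edge (n = 72) and wound center (n = 72), in FPKM on a log axis, with dots for medians and lines from the lowest to the highest sample. SFRP2 spans from 1.23 to 897 FPKM at the edge and from 15.3 to 1707 FPKM in the center, and WNT10A has medians of 3.29 FPKM at the edge and 0.0503 FPKM in the center.

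Whether the genes differ between edge and center was tested within each day in edgeR, by quasi-likelihood, and called where the Benjamini-Hochberg adjusted p over all genes was below 0.05. Of the 140 member-by-day tests, 21 were called higher at the edge and 27 higher in the center. Over all genes the shares were 12.5% and 11% of the gene-by-day tests. With edge and center of a wound paired as a block the counts were 28 and 33. No member was called on days 3, 19 and 21, and on those days the test called 0, 0 and 10 genes of all, with 1667, 479 and 1269 below an unadjusted p of 0.05.

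By day, the members higher at the edge and in the center numbered 3 and 2 on day 1, where 24% and 22.6% of all genes were called that way. They numbered 3 and 2 on day 2 (17.8% and 17.7% of all genes), 2 and 0 on day 4 (16.4% and 11.4%), 2 and 2 on day 5 (20.3% and 16.8%) and 1 and 2 on day 6 (10.3% and 3.92%). They were 2 and 4 on day 7 (20.4% and 17.1%), 3 and 2 on day 9 (17.3% and 14.3%), 2 and 5 on day 11 (20.6% and 22.9%) and 2 and 4 on day 13 (16.6% and 11.8%). With 3 wounds they were 1 and 3 on day 15 (7.55% and 9.81%) and 0 and 1 on day 16 (4.21% and 5.87%), and on day 21 no member was among the 0.0684% of genes called at the edge. The center had more members called than the edge on days 6, 7, 11, 13, 15 and 16, and WNT5A was among them on each.

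In the fit of all 150 samples, averaged over the 14 days, 3 members were higher at the edge (WNT10A, AXIN2 and WNT10B) and 4 in the center (SFRP2, WNT5A, WNT2 and DKK3), against 32.5% and 33.8% of all genes. The edge and center difference itself changed between days for 5 of 10 members (WNT5A, WNT10A, LEF1, DKK2 and DKK3), against 30.8% of all genes.

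**Figure D2:**
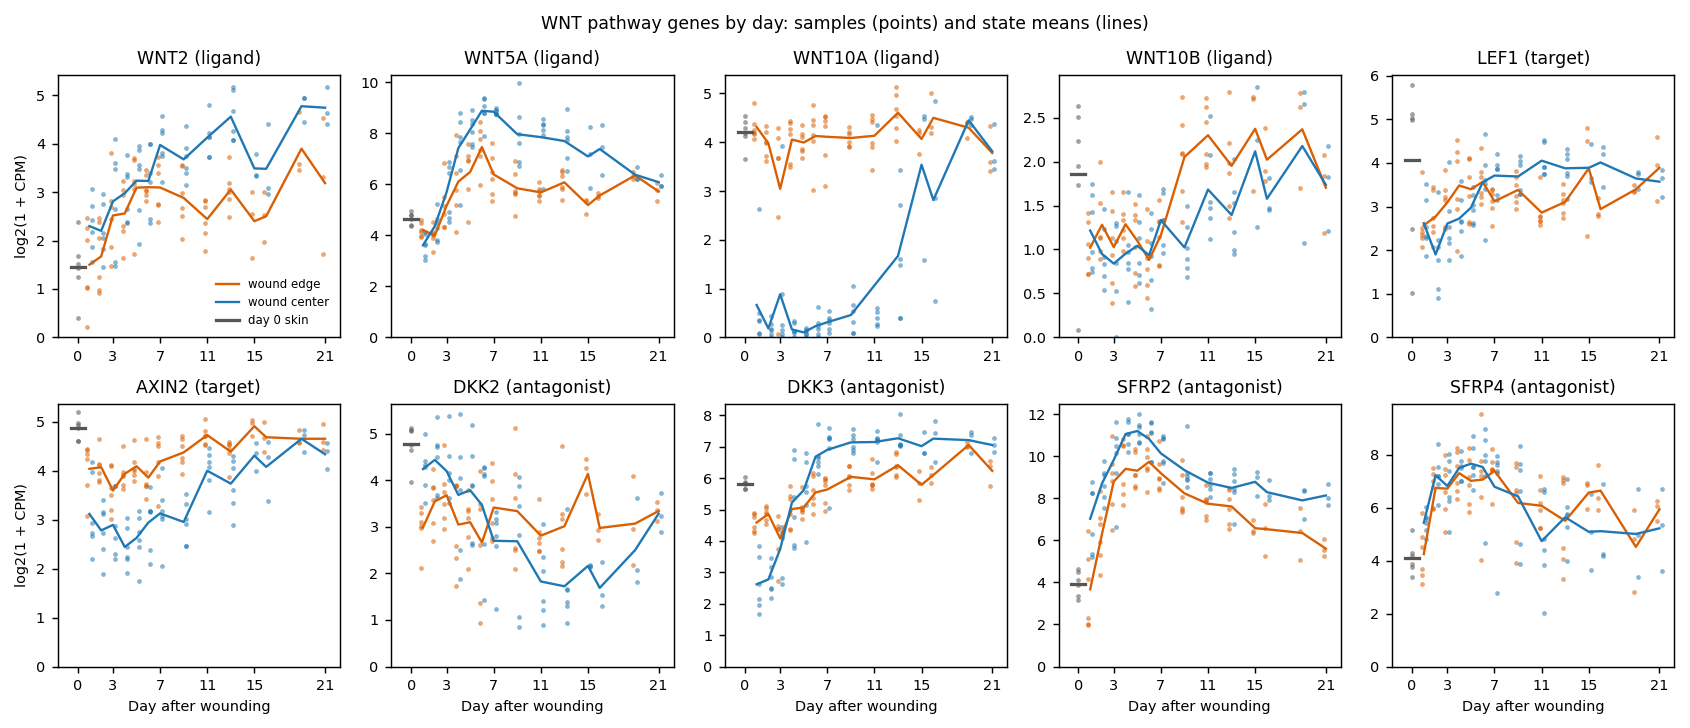
Level of each gene as log2(1 + CPM) against the day after wounding, with points for samples and lines for the means of wound edge (orange) and wound center (blue), and a grey bar for the mean of day 0 skin. WNT10A lies near its day 0 mean at the edge and near 0 in most center samples up to day 9, whereas SFRP2 is above day 0 in the center throughout and peaks at a center mean of 11.21 on day 5.

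**Figure D3:**
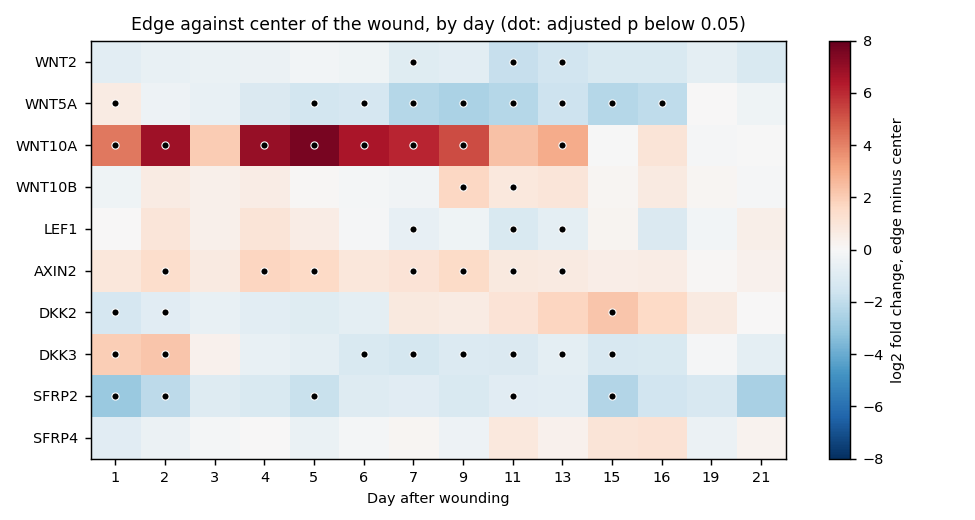
Log2 fold change of edge against center for each gene and day, red for higher at the edge and blue for higher in the center, with a dot where the adjusted p is below 0.05. WNT10A reaches 7.58 on day 5, WNT5A is higher in the center on 8 days, and DKK3 turns from the edge on days 1 and 2 to the center from day 6.

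WNT10A, a ligand known from tooth, hair and epidermal development, was the member with the largest difference between edge and center. At the edge it was found at values like those of day 0 skin, and most center samples of the first 9 days held under 1 CPM. In day 0 skin it had counts of 315, 388, 293, 372, 221 and 341 in animals 1 to 6, and no edge state was called different from day 0. On day 5 the 6 center samples ran from 0 to 2 counts and the 6 edge samples from 205 to 351 counts. The groups did not overlap, and the edge was higher by 7.58 ± 0.32 (SE) on the log2 scale (adjusted p = 1.48e-09, edgeR). The groups did not overlap on 8 days (1, 2, 4, 5, 6, 7, 9 and 13), and all 8 were called higher at the edge.

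In the center WNT10A was again found late and unevenly. On day 13 the center ran from 5 to 156 counts (median of 1.93 CPM). On day 15 the 3 center samples had 341, 336 and 35 counts against 334, 297 and 178 counts at the edge. On day 16 they had 27.9, 0.672 and 6.21 CPM against 31.4, 18.8 and 17.2 CPM. On day 19 the 3 center samples had 21.2, 19.5 and 21.9 CPM against 20.2, 15.9 and 20.2 CPM, and the groups overlapped. Against day 0 the center was lower on 10 days (1 to 13), down to a log2 fold change of -7.85 (SE 1.05, adjusted p = 9.15e-11, edgeR) on day 5, and was not called on days 15 to 21.

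Among the center samples up to day 11, 3 stood out with high WNT10A. They were replicate 5 of day 1 (89 counts), replicate 4 of day 3 (263 counts) and replicate 1 of day 11 (285 counts). Their 12 keratinocyte markers summed to 10020, 17504 and 18048 CPM, where the medians of those 3 center states were 344, 289 and 161 CPM. At the edge, replicate 6 of day 3 had 1 count of WNT10A and a keratinocyte sum of 323 CPM. On days 3 and 11 the edge and center groups overlapped and WNT10A was not called (adjusted p = 0.528 and 0.0960, edgeR). Leaving out a replicate, here and in the day tests below, removed both its edge and its center sample. Without replicate 4 the day 3 difference was 5.36 (adjusted p = 0.0446, edgeR). Without replicate 1 the day 11 difference was 5.76 (adjusted p = 5.24e-07, edgeR). With wounds paired the day 11 difference was called (4.68, adjusted p = 0.00430, edgeR) and that of day 3 was not (4.23, adjusted p = 0.143). The part of keratinocyte content in the WNT10A difference was not tested.

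**Figure D4:**
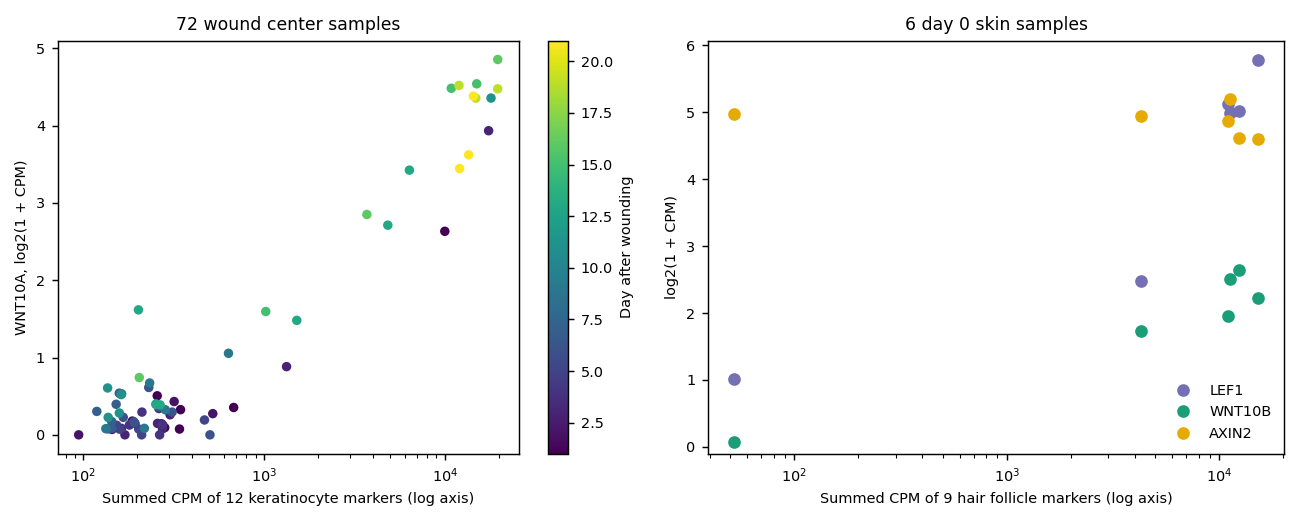
Left, WNT10A as log2(1 + CPM) against the summed CPM of 12 keratinocyte markers (log axis) in the 72 wound center samples, coloured by day. Right, LEF1, WNT10B and AXIN2 as log2(1 + CPM) against the summed CPM of 9 hair follicle markers (log axis) in the 6 day 0 skin samples, where animal 2 lies apart at 52.2 CPM of markers with LEF1 at 1.02 and WNT10B at 0.08.

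WNT10B, a ligand known from hair follicle growth, fell early in both places. In day 0 skin it had 55, 1, 82, 79, 44 and 78 counts in animals 1 to 6, so animal 2 was far below the others. It was lower than day 0 on days 1 to 7 at the edge and on days 1 to 6 and 9 in the center, by -1.85 ± 0.47 at the edge on day 6 (adjusted p = 0.000593, edgeR). With the animal as a block 4 edge and 6 center states were lower, in fits of only the state and day 0 samples 2 and 4, and without the day 0 sample of animal 2 the counts were 7 and 9. It was then higher at the edge than in the center on days 9 and 11. On day 9 the edge ran from 31 to 111 counts and the center from 12 to 34 counts, with overlapping groups, a log2 difference of 1.68 ± 0.38 (adjusted p = 0.00464, edgeR) and the edge higher in 6 of 6 wounds. With the wounds of an animal summed the day 9 call was lost (adjusted p = 0.0564). The day 11 call (0.84, adjusted p = 0.0465) was lost without any one of replicates 1, 2, 4, 5 and 6 (adjusted p from 0.0518 to 0.120, edgeR). Averaged over days the edge was higher by 0.39 ± 0.14 (adjusted p = 0.0109, edgeR). With replicate 2 left out of every state at once, it was higher by 0.26 (adjusted p = 0.133, edgeR).

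WNT5A, which signals largely through ROR2 and other receptors without beta-catenin, rose in both places and most in the center. Its 6 day 0 samples lay between 19.4 and 30.0 CPM. In the center it ran from 7.18 to 16.7 CPM on day 1, all below day 0, and from 427 to 506 CPM on day 7. The center was lower than day 0 on day 1 (-1.24 ± 0.45, adjusted p = 0.0133) and higher on days 3 to 21, most on day 6 (4.30 ± 0.50, adjusted p = 7.43e-13, edgeR). At the edge it was higher on 8 days, most also on day 6 (2.98 ± 0.48, adjusted p = 7.40e-08, edgeR). With the animal as a block the center on day 3 and the edge on days 9 and 11 were not called (adjusted p = 0.0590, 0.0631 and 0.124).

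The difference between edge and center in WNT5A changed between days (adjusted p = 0.000155, edgeR). On day 1 the edge was higher in 6 of 6 wounds (0.66 ± 0.23, adjusted p = 0.0319, edgeR), and that call was lost without replicate 2, 3 or 5 (adjusted p from 0.0689 to 0.0878). From day 5 to day 16 the center was higher on all 8 sampled days. Without replicate 4 the day 5 call was lost (adjusted p = 0.0503), without replicate 1, 3 or 4 that of day 6 (0.0661 to 0.0764), and without replicate 2 or 3 those of days 15 and 16 (0.181 to 0.255, edgeR). On day 7 the edge ran from 39.1 to 198 CPM, below every center sample, with a difference of -2.28 ± 0.33 (adjusted p = 0.000165, edgeR). With wounds paired, day 4 was also called (-1.28, adjusted p = 0.00131), while days 15 and 16 were not (adjusted p = 0.117 and 0.0674, edgeR). On day 19 edge and center met, at 72.8, 80.1 and 89.2 CPM against 73.7, 101 and 73.7 CPM.

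WNT2, a ligand of the beta-catenin branch, was highest in the last days sampled. It started at 42, 30, 29, 91, 6 and 23 counts in day 0 skin, the lowest mean of its 29 states. In the center it was higher than day 0 on days 3 to 21, and its highest mean was on day 19, when the center samples had 29.6, 29.8 and 20.7 CPM (3.93 ± 0.54 above day 0, adjusted p = 1.70e-09, edgeR). At the edge it was higher on 11 days, of which days 11 and 16 were not called with the animal as a block (adjusted p = 0.0632 and 0.0821). The center was higher than the edge in 62 of 72 wounds and in the mean of all 14 days. The day tests called days 7, 11 and 13, and on day 11 the center (12.2 to 26.7 CPM) lay above the whole edge group (2.46 to 6.19 CPM), by 1.81 ± 0.25 on the log2 scale (adjusted p = 0.000177, edgeR). The day 7 call (-0.97, adjusted p = 0.0252) was lost without replicate 1, 5 or 6 (adjusted p from 0.0565 to 0.117, edgeR). Pairing wounds added days 4 and 9 (adjusted p = 0.0445 and 0.00943, edgeR), and the test of a change between days gave an adjusted p of 0.596.

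LEF1 is a transcription factor through which beta-catenin acts and itself a target. It was high in most day 0 samples and called lower in both places on days 1 to 9. The 6 day 0 samples had 652, 18, 495, 1159, 87 and 516 counts in animals 1 to 6, a spread so wide that every wound state overlapped them. The hair follicle markers of the same samples summed to 10965, 52.2, 12429, 15254, 4293 and 11226 CPM, and so were lowest in the 2 animals with the least LEF1. LEF1 was lower than day 0 on days 1 to 13 and 16 at the edge (11 states) and on days 1 to 9 in the center (8 states), down to -3.10 ± 0.45 in the center on day 2 (adjusted p = 2.75e-09, edgeR). In the fit without the day 0 sample of animal 2, chosen after seeing the data, 12 edge and 12 center states were lower, and with the animal as a block 10 and 6. In fits of only the state and day 0 samples, 5 and 5 were called. The part of hair follicle content in this difference was not tested.

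Within the wound, LEF1 was higher in the center on days 7, 11 and 13. On day 11 the 6 center samples (12.4 to 21.9 CPM) all exceeded the edge samples (5.02 to 11.8 CPM), by 1.23 ± 0.21 on the log2 scale (adjusted p = 0.000784, edgeR). On day 4 the edge had a median of 11.7 CPM against 5.33 CPM in the center, and this was called with wounds paired (0.93, adjusted p = 0.0368) and not otherwise (adjusted p = 0.119, edgeR). Pairing also called the center on day 16 (adjusted p = 0.0446). The day 7 call was lost without replicate 1, 3, 5 or 6 (adjusted p from 0.0585 to 0.129) and the day 13 call without replicate 1, 3 or 5 (0.0510 to 0.0655, edgeR). On day 15 the edge samples had 21.7, 26.9 and 4.02 CPM of LEF1, and their hair follicle markers summed to 2542, 6756 and 7.19 CPM. The center samples of that day had 10.9, 11.6 and 20.7 CPM of LEF1 with marker sums of 16.1, 12.7 and 1.16 CPM. On day 11 the center sums ran from 0.065 to 9.155 CPM, while edge replicate 3, with 11.8 CPM of LEF1, had 906 CPM. A relation of LEF1 to these markers within the wound was not tested. Averaged over days LEF1 did not differ (-0.06 ± 0.13, adjusted p = 0.7104, edgeR). The change of its difference between days had an adjusted p of 0.0168. It was lost with replicate 1, 2, 3 or 5 left out of every state that had it (adjusted p up to 0.131, edgeR).

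AXIN2 fell early in both places, and more in the center. In day 0 skin it had 543, 533, 368, 501, 567 and 596 counts, close together also in animal 2. On day 4 the center ran from 46 to 127 counts and the edge from 199 to 398 counts. The center was then below day 0 by -2.71 ± 0.31 (adjusted p = 2.12e-13) and the edge by -1.01 ± 0.29 (adjusted p = 0.00347, edgeR). The edge was lower than day 0 on days 1 to 6 and the center on days 1 to 13, and with the animal as a block the edge on day 5 and the center on day 11 were not called (adjusted p = 0.0643 and 0.0645). The last 4 days were not called in either place, and on day 19 edge and center had 27.3, 22.9 and 22.6 CPM against 25.6, 19.9 and 27.7 CPM.

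AXIN2 was higher at the edge than in the center in 68 of 72 wounds, in all 6 animals, by 0.93 ± 0.09 averaged over days (adjusted p = 9.80e-18, edgeR). The day tests called 7 days (2, 4, 5, 7, 9, 11 and 13), of which 5 had groups that did not overlap. The day 7 call was lost without replicate 3, 4 or 6 (adjusted p from 0.0864 to 0.102) and that of day 13 without replicate 1, 2, 5 or 6 (0.0519 to 0.110, edgeR). Day 6 was called with wounds paired (1.01, adjusted p = 0.0351) and missed the threshold otherwise (adjusted p = 0.0700, edgeR). The test of a change of this difference between days gave an adjusted p of 0.0550, and 0.0400 with the animal as a block. Over the 29 state means AXIN2 had its closest match among the members in WNT10A (r = 0.898), a description over means of the same libraries.

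SFRP2, which binds WNT ligands outside the cell, had the widest span of all members. Its day 0 samples had 9.09, 13.5, 21.7, 24.2, 16.4 and 7.91 CPM. In the center it ran from 36.2 to 443 CPM on day 1, above every day 0 sample, and from 1585 to 4098 CPM on day 5, which was 7.25 ± 0.76 above day 0 on the log2 scale (adjusted p = 5.79e-15, edgeR). It was higher than day 0 in the center on all 14 days and at the edge on days 2 to 21, with the edge on day 21 no longer called with the animal as a block (adjusted p = 0.110). Medians were lower after day 6, and on day 21 the center still had 262, 410 and 206 CPM against 36.9, 65.2 and 45.5 CPM at the edge.

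The center exceeded the edge for SFRP2 in 68 of 72 wounds, by 1.55 ± 0.18 averaged over days (adjusted p = 2.28e-13, edgeR). The day tests called 5 days (1, 2, 5, 11 and 15). On day 1 the center had a median of 190 CPM and the edge of 10.4 CPM, with a few samples overlapping (-3.00 ± 0.95, adjusted p = 0.0218, edgeR). The calls of day 1 (without replicate 2 or 4), day 2 (without 2), day 11 (without 5) and day 15 (without 2 or 3) were lost, with adjusted p from 0.0559 to 0.173. With wounds paired, days 4, 9, 16 and 21 were called as well (adjusted p = 0.00226, 0.0129, 0.0457 and 0.00261, edgeR). On day 21 the groups did not overlap and the unpaired difference of -2.57 ± 0.32 had an adjusted p of 0.0841. The difference was not shown to change between days (adjusted p = 0.454).

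SFRP4, a relative of SFRP2, was first called higher than day 0 on day 2 in both places. From 34.3, 9.36, 12.4, 18.4, 17.2 and 13.7 CPM in day 0 skin it reached medians of 118 CPM at the edge and 145 CPM in the center on day 2. Against day 0 it was higher on 12 days at the edge and on 8 days in the center. The largest fitted changes were on day 6 (3.67 ± 0.71 and 3.86 ± 0.71, adjusted p = 6.12e-06 and 1.30e-06, edgeR). On that day replicate 5 had 749 CPM at the edge (others from 15.4 to 219 CPM) and 508 CPM in the center (others from 24.7 to 380 CPM). By the mean of log2(1 + CPM) the center was highest on day 5 (7.66), with day 6 next (7.53). Samples of one state differed widely, for instance from 5.86 to 246 CPM in the center on day 7. No day was called between edge and center, and the averaged difference was 0.05 ± 0.19 (adjusted p = 0.874). Pairing wounds called the center on day 1 (adjusted p = 0.0119) and the edge on days 11 and 16 (adjusted p = 0.0339 and 0.0430, edgeR). The calls of SFRP4 against day 0 at the edge on days 11, 13, 15 and 21 and in the center on day 13 were lost with the animal as a block (adjusted p from 0.0525 to 0.135).

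DKK3 was higher at the edge at first and in the center later. Day 0 skin held it evenly, at 49.9, 49.6, 57.1, 55.6, 56.8 and 65.3 CPM. On day 1 the center ran from 2.17 to 13.4 CPM and the edge from 18.1 to 28.7 CPM, both wholly below day 0, with the edge higher by 1.99 ± 0.41 on the log2 scale (adjusted p = 0.00206, edgeR). On day 2 the edge was higher by 2.23 ± 0.22 (adjusted p = 4.20e-06), again without overlap. On day 9 the center was higher, at 110 to 187 CPM in the center and 47.7 to 83.1 CPM at the edge (-1.09 ± 0.19, adjusted p = 0.000837, edgeR).

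The center of DKK3 was called higher than the edge on 6 days (6, 7, 9, 11, 13 and 15), the last not with wounds paired (adjusted p = 0.0844) nor without replicate 2 or 3 (adjusted p = 0.225 and 0.136, edgeR). The change of the difference between days had an adjusted p of 3.91e-11 (edgeR). Against day 0 the center was lower on days 1 to 3, down to -3.36 ± 0.38 (adjusted p = 1.66e-13), and higher on days 6 to 21, by at most 1.73 ± 0.40 on day 16 (adjusted p = 0.000183, edgeR). The day 6 call was lost with the animal as a block (adjusted p = 0.0833). The edge was lower on days 1 to 3 and higher on day 19 alone among its 14 days, when its 3 samples had 130, 140 and 126 CPM.

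DKK2, a Dickkopf protein that binds LRP5 and LRP6, had its highest mean in day 0 skin. The day 0 samples had 25.9, 32.8, 24.1, 32.5, 33.9 and 14.5 CPM. On day 1 the edge fell to 3.33 to 9.75 CPM while the center held 10.3 to 31.0 CPM, so the groups did not overlap (-1.33 ± 0.29, adjusted p = 0.00313, edgeR). On day 15 the edge had 222, 311 and 296 counts and the center 52, 55 and 61 counts, a difference of 2.20 ± 0.22 toward the edge (adjusted p = 0.0165, edgeR) that was not called without replicate 2 or 3 (adjusted p = 0.159 and 0.0612). Day 2 was called for the center (adjusted p = 0.0494), a call lost without replicate 2, 3, 5 or 6 (adjusted p from 0.0694 to 0.135, edgeR). The difference changed between days (adjusted p = 0.000641, edgeR). Pairing wounds called the edge on days 11 and 13 (adjusted p = 0.00596 and 0.0164, edgeR).

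Against day 0, DKK2 was lower at the edge on 8 days from day 1 to day 13, while the center was called from day 7 to day 19, down to -3.34 ± 0.78 on day 16 (adjusted p = 0.000183, edgeR). With the animal as a block, the edge on day 2 was lost (adjusted p = 0.0525), and the edge on days 9 and 16 and the center on day 6 were gained (adjusted p = 0.0398, 0.0447 and 0.0280). Across the 29 state means DKK2 and DKK3 had the lowest correlation of any 2 members (r = -0.692), as a description. DKK2 and LEF1 are annotated on one contig, 915774 bases apart.

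Wound tissue and day 0 skin were compared in the fit of all 150 samples, whose 28 comparisons share the 6 day 0 samples. At the edge 45 of 140 member-by-state tests were called higher and 35 lower, against 19.9% and 14.6% of the tests of all genes. In the center 55 were higher and 46 lower, against 28.2% and 27.5%. Blocked by animal, the counts were 36 and 31 at the edge and 52 and 43 in the center. WNT2, WNT5A, SFRP2 and SFRP4 made up the higher calls with DKK3, and WNT10B, LEF1, AXIN2 and DKK2 had lower calls alone in both places. Over days, 8 of 10 members changed at the edge, against 58.7% of all genes, and 10 of 10 in the center, against 75.2%. The 2 not called at the edge were WNT10A (adjusted p = 0.921) and DKK2 (adjusted p = 0.678).

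**Figure D5:**
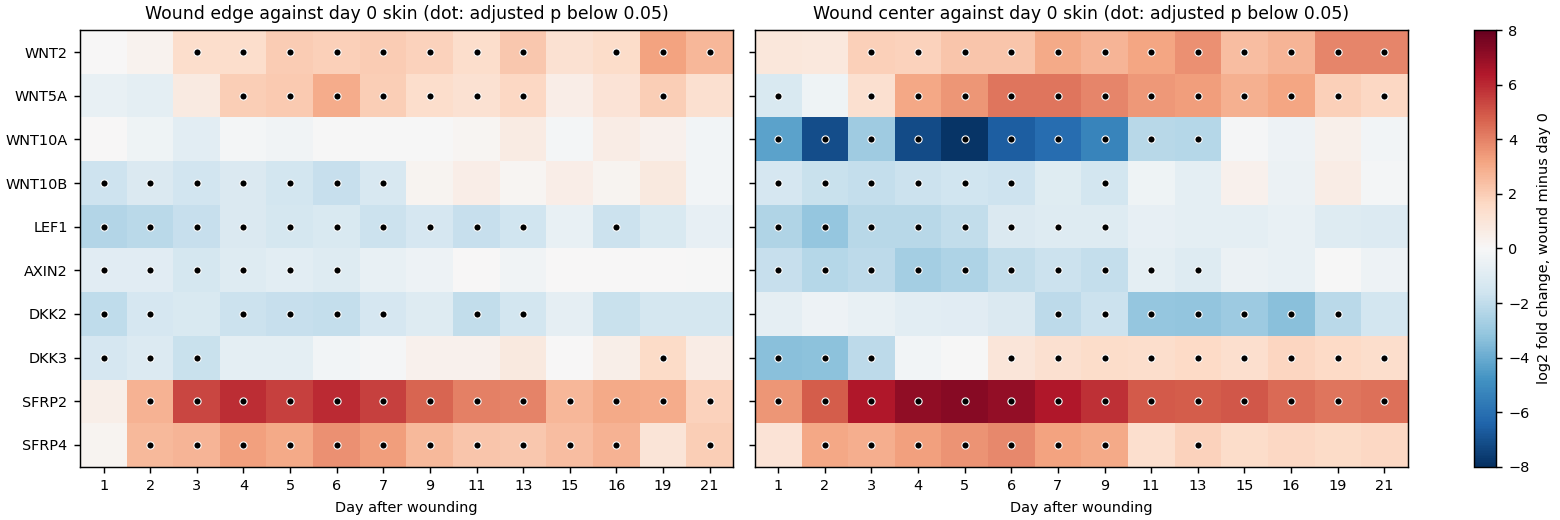
Log2 fold change of each wound state against day 0 skin for the edge (left) and the center (right) by day, red for higher and blue for lower than day 0, with a dot where the adjusted p is below 0.05. SFRP2 is the reddest row in both, and WNT10A has its dots in the center alone, down to -7.85 on day 5, with an edge that is pale and without dots.

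The order of a gene's states by level is given as a description. With the 29 states of a gene ordered by mean, adjacent states differed by more than the larger of their SDs in at most 2 of 28 pairs (WNT5A). Ordering by mean itself makes these gaps small, and the SD is a spread of samples. The count therefore cannot show whether any states differ. For SFRP2 the highest mean was 11.21 ± 0.53 (SD, n = 6; day 5 center) and the next 11.06 ± 0.60 (SD, n = 6; day 4 center), and the lowest was 3.67 ± 1.87 (SD, n = 6; day 1 edge). For AXIN2 the day 15 edge at 4.91 ± 0.17 (SD, n = 3) and day 0 skin at 4.87 ± 0.23 (SD, n = 6) headed the order. For LEF1 the top places were day 0 skin at 4.07 ± 1.88 (SD, n = 6) and the day 11 center at 4.05 ± 0.35 (SD, n = 6).

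The rest of the pathway was covered by 80 further genes, of which 77 had a row and 73 passed the filter. Averaged over days 37 were higher at the edge, 19 higher in the center and 17 were not called, beside 32.5% of all genes at the edge and 33.8% in the center, with a median difference of 0.19 toward the edge on the log2 scale, against -0.01 over all genes. Of 12 other WNT ligands tested, 9 were higher at the edge and none in the center. Among the 9, WNT7A passed the filter of the day tests on 0 days and was tested in the fit of all samples alone. The ligand WNT3A, named with SOSTDC1 for having the largest folds of 12 genes called at the edge on as many days, was higher at the edge on 9 days and by 4.80 ± 0.31 averaged over days (adjusted p = 1.89e-27, edgeR). Of 15 receptors, 4 were higher at the edge and 6 in the center, near the shares of all genes. ROR2, a receptor for WNT5A, was higher in the center on 11 days and by 1.28 ± 0.09 (adjusted p = 2.75e-27), and FZD2, a Frizzled receptor, on 7 days (0.86 ± 0.10, adjusted p = 1.75e-13, edgeR).

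Among the 15 other antagonists and inhibitors tested, 8 were higher at the edge and 4 in the center, to be read against the same 32.5% and 33.8% as the counts that follow. Of these, DKK4 (center) passed the filter of the day tests on 0 days and SOST (edge) on 1. SOSTDC1, a secreted inhibitor, was higher at the edge on 9 days (4.78 ± 0.31, adjusted p = 1.37e-29), and ZNRF3, a ubiquitin ligase that removes Frizzled receptors, on 10 days (0.79 ± 0.06, adjusted p = 1.00e-25, edgeR). SFRP1, of the same family as SFRP2, was higher in the center on 10 days (1.15 ± 0.09, adjusted p = 3.41e-22). Of 7 R-spondin and LGR genes 5 were higher at the edge and 1 in the center. Of those 5, RSPO2 passed the filter of the day tests on 0 days. RSPO4, also among the 5, was called at the edge on 0 days and in the center on 2. LGR6, a receptor for R-spondins, was higher at the edge on 10 days (3.01 ± 0.22, adjusted p = 1.34e-25, edgeR). Of the 7 target genes tested, 5 were higher at the edge and 2 in the center. TNFRSF19 was higher at the edge on 11 days (1.74 ± 0.11, adjusted p = 6.62e-31), whereas CCN4 was higher in the center on 8 days and at the edge on 2 (0.97 ± 0.15 toward the center, adjusted p = 7.55e-09, edgeR). Of 15 intracellular components 6 were higher at the edge and 5 in the center, again near the shares of all genes, among them DVL3, a Dishevelled protein, in the center on 8 days (0.38 ± 0.04, adjusted p = 9.41e-18). Of the 2 secretion genes, 1 was higher in the center and the other was not called.

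The genes whose state means followed a member most closely were sought among 15832 named genes over the 29 states, a description without a test over means of the same libraries. WNT10A had LYPD3 (r = 0.995) and COL17A1 (r = 0.993), the second of which is also on the keratinocyte list. WNT5A had CORIN (r = 0.968) and TCTN3 (r = 0.954), and DKK3 had PODNL1 (r = 0.979) and CACNB3 (r = 0.967). AXIN2 had CAMK2N1 (r = 0.964) and LRFN1 (r = 0.957), SFRP2 had GANAB (r = 0.935) and DSE (r = 0.921), and WNT2 had ZNF564 and SH3PXD2B (both r = 0.909). LEF1 had MSX2 (r = 0.887) and CTTNBP2 (r = 0.857), and WNT10B had LRRC29 (r = 0.891) and PADI1 (r = 0.886). DKK2 had KAZALD1 (r = 0.898) and ADAMTSL3 (r = 0.895), and SFRP4 had C7 (r = 0.867) and ACSF3 (r = 0.834).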

How the data were processed

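Poly-A RNA of 150 tissue samples was sequenced in paired reads by Novogene. Read cleaning, alignment and counting were done by the provider, and the authors deposited raw counts per gene and FPKM values, 1 column per sample. The aligner, counter, genome build and any use of strand are not given in the sources used here. Columns were matched to samples by their labels, and 0 columns were left unmapped.

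From the counts, CPM was computed on the total of all gene rows, and levels are log2(1 + CPM). FPKM was used for levels between genes alone. Differences were tested with edgeR 4.0.16 (R 4.3.3): TMM scaling, a filter by filterByExpr, the quasi-likelihood test, and Benjamini-Hochberg adjustment over all genes tested with a threshold of 0.05. Edge and center were compared within each day on that day's samples alone. Comparisons with day 0, the average over days and the tests of change between days came from 1 fit of all 150 samples with 29 states. The scripts were tested on simulated data. With 6 samples each at edge and center, edgeR recovered 70% of 2-fold changes, with a false share among calls of 5.56%. With 3 samples each, recovery was 13% and the false share 8.54%. Of 4-fold changes, 83% were recovered with 6 samples each and 62% with 3. In the fit of all samples, 45% of 2-fold changes were recovered for the day 7 center against day 0, with a false share of 0.9%. For the average over days these were 89% and 5.21%. For 2-fold changes, pairing wounds gave 54% recovery and a false share of 4.23% with 6 samples each, and 1% and 17.86% with 3. The simulated edge and center of a wound were drawn independently, so these figures cannot show how pairing performs on real wounds. DESeq2, used as an alternative, had false shares of 25.89% and 36.17%. On days with 3 wounds a missing call is therefore weak evidence. How far a paired call can be trusted on those days was not tested.

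The replicate numbers follow wounds: edge and center share a wound per the labels, and deviations of the pair from their group means correlated at 0.259 on average (64 of 72 positive). The wound, or the animal in the fit of all samples, was therefore used as a block as an alternative. Other alternatives were RLE scaling, library size alone, DESeq2 1.42.0, no filter, each replicate left out, the 2 wounds of an animal summed, and leaving out 7 libraries that correlate poorly with their replicates. In a day test, leaving out a replicate removed its edge and its center sample. In the fit of all samples, it removed that replicate number from every state that had it, day 0 included. No 2 libraries had identical counts.

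The members, gene lists and marker lists were chosen with earlier results of these data known. The text names the members, from the pathway lists the 5 genes called at the edge and the 5 called in the center on the most days (ties went to the larger mean absolute log2 fold change over the called days, which picked SOSTDC1 and WNT3A from 12 genes with 9 edge days, and FZD2 over FZD1 with 7 center days), and the 2 genes most like each member by Pearson correlation of state means. Floors and counts cover counting error only.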

Additional observations from a re-analysis of the deposited data

Results flagged for a closer look

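In groups of 6 samples, 18 of 210 gene and state groups held a sample whose gap to the nearest other exceeded Dixon's 95% critical share of the group's range, where chance gives about 1 in 20, or 10.5. All values here are log2(1 + CPM). Of the 18, 11 were in the center, 6 at the edge and 1 in day 0 skin, and 3 were in the 7 libraries that correlate poorly with their replicates.

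Among the ligands, WNT10A was high in center replicate 5 of day 1 (2.63), replicate 4 of day 3 (3.93) and replicate 1 of day 11 (4.36), where the highest of the others reached 0.50, 0.88 and 0.61. The last of these libraries was low for WNT5A (5.79, others from 7.91). WNT2 was low in edge replicate 5 of day 5 (1.72, others from 3.06), and WNT10B was low in day 0 replicate 2 (0.0801, others from 1.73).

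Among the targets, LEF1 was high in edge replicate 1 of day 1 (3.80, others up to 2.51) and edge replicate 3 of day 11 (3.68, others up to 2.79). AXIN2 was low in edge replicate 4 of day 13 (3.88, others from 4.36).

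Among the antagonists, DKK2 was low in edge replicate 1 of day 1 (2.11, others from 2.98) and center replicate 6 of day 7 (1.23, others from 2.59), and high in edge replicate 6 of day 11 (3.61, others up to 2.89) and center replicate 6 of day 13 (3.39, others up to 1.67). DKK3 was high in center replicate 2 of day 6 (7.72, others up to 6.70) and center replicate 3 of day 13 (8.05, others up to 7.36), and low in center replicate 2 of day 7 (5.06, others from 6.95). SFRP2 was high in center replicate 4 of day 9 (11.45, others up to 9.19), and SFRP4 was low in center replicate 6 of day 7 (2.78, others from 7.29).

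The edge and center difference changed between days for 5 members by the quasi-likelihood F test of edgeR, with adjusted p of 0.000155 for WNT5A, 8.30e-10 for WNT10A, 0.0168 for LEF1, 0.000641 for DKK2 and 3.91e-11 for DKK3. For LEF1 it was lost with replicate 1, 2, 3 or 5 left out of every state that had it (adjusted p from 0.0585 to 0.131). It was also lost with the wounds of an animal summed (0.212).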

How the results depend on the processing

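No member changed its direction past the threshold under any alternative run. The counts of calls were within 1.5 times those reported in each alternative: 18 to 28 member-days at the edge and 19 to 34 in the center, 36 to 49 higher and 25 to 41 lower edge states against day 0, and 52 to 60 and 42 to 52 center states. Of 1960 alternative values of member-days, 73 lost and 56 gained a call. Against day 0, 158 of 4200 lost and 91 gained one. Leaving out each replicate in turn ended 18 of 48 called member-days and 36 of 181 called member-states in at least 1 case, and gave a call to 14 and 17 others. For member-states, each such run left that replicate number out of every state at once, day 0 included.

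Pairing edge and center of a wound as a block gave 28 member-days at the edge and 33 in the center, and the animal as a block gave 36 higher and 31 lower edge states and 52 higher and 43 lower center states. With the animal as a block 3 and 4 members were called on average over days, and 6 changed their difference between days. Scaling by library size alone moved the median of all genes against day 0 by up to -0.26 (day 19 edge) on the log2 scale. Leaving out day 0 replicate 2, an alternative chosen after seeing the data, gave 41 and 36 edge states and 55 and 52 center states.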
